A study of Mus musculus with 20 samples.

Results

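SGC0649 is the control compound for SGC0946, an inhibitor of the histone methyltransferase DOT1L, and these data hold T cell cultures with SGC0649 and with no compound at all. The libraries were chosen by their labels: 4 WT libraries with SGC0649 (2 Th1, 2 Th2) and 4 WT libraries without compound (2 Th1, 2 Th2), 8 of the 20 libraries in the series. RNA was sequenced from mouse CD4+ T cells of spleen and peripheral lymph nodes, stimulated for 4 days through CD3 and CD28 (plate-bound antibodies, 1 µg/ml of each) and then sorted as viable CD4+ cells. IL-12 together with anti-IL-4 drove the Th1 cultures, IL-4 together with anti-IFN-γ the Th2 cultures, and both received IL-2, with cytokines at 10 ng/ml and these antibodies at 10 µg/ml. The treated cultures had 1 µM SGC0649, and the libraries with SGC0946 set beside them below had 1 µM of that compound. WT here means Cre-positive, driven by Cd4, with no loxP-flanked Dot1l allele, so all of these groups carry Cre. The labels name no solvent for either compound and no solvent in the cultures without compound, so compound and solvent cannot be told apart. In the sample titles all libraries with a compound carry later S numbers than all libraries without, so compound and this order cannot be told apart either. The labels do not say what the S numbers mean. They do not say whether replicates came from separate mice, and p-values then measure only the spread between these libraries.

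DOT1L is the enzyme that methylates a lysine in the core of histone H3 along transcribed genes. A control compound for an enzyme inhibitor is a relative of it that lacks the activity, used so that effects of the chemical scaffold can be seen apart from those of the enzyme's loss of function. Th1 cells make IFN-γ under the factor T-bet (Tbx21), and Th2 cells make IL-4, IL-5 and IL-13 under GATA3. Both kinds of cell divide quickly, burn glucose by glycolysis and signal from the T cell receptor through the ERK, NF-κB and NFAT pathways.

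Few genes were called between SGC0649 cultures and cultures without compound in the main fit, which took the 20 libraries as unpaired. Averaged over Th1 and Th2, 27 of 13072 genes tested (0.207%) were called at an adjusted p under 0.05 by edgeR's quasi-likelihood test, 16 higher (0.122%) and 11 lower (0.0841%). Of these, 3 differed by at least 2-fold: Gapdh and Ccl6 were higher and Hist1h1c was lower. All 27 had the same sign in Th1 and in Th2, and in 26 the SGC0649 libraries lay on 1 side of the libraries without compound in both cultures, as did 10.5% of all genes tested. The test of the average, which picked these 27 genes from the same libraries, favours both traits. At an unadjusted p under 0.05 there were 1617 genes (12.4%). Fitted on the 8 libraries alone, 6 genes were called (0.0497%), with 3 of the 27 among them. With Th1 and Th2 as an additive factor in those 8 libraries 5 were called, with 2 of the 27. With the replicate number as a block in the same 8 libraries 102 were called (0.845%), with 25 of the 27, and below, the block always means this fit of 8 libraries.

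The 2 cultures were unequal. In Th1 alone 2 genes were called, Gapdh and Selenbp1, both higher (0.0153%), and 616 genes (4.71%) had an unadjusted p under 0.05. In Th2 alone 88 genes were called (0.673%), 32 higher (0.245%) and 56 lower (0.428%), and 2748 (21.0%) had an unadjusted p under 0.05. With the deposited table of every biotype Th2 gave 91 genes, 55 higher and 36 lower, so the share of higher against lower calls turned with the table fitted. The 8 libraries alone called 1 gene in Th1 and 1 in Th2 (0.00828% each). With the block they called 10 in Th1 (0.0828%) and 974 in Th2 (8.07%). The difference itself, Th2 minus Th1, was called for 9 genes (0.0688%), all with a lower value in Th2, for 0 with the 8 libraries alone, and for 217 in these with the block (1.80%), 132 higher (1.09%) and 85 lower (0.704%).

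The second SGC0649 library of Th2 stood apart. Between the replicates of its group the log2 differences had an SD of 0.319, against 0.106 to 0.158 in the other 3 groups. It scored 18.9 on the second principal component of the Th2 libraries, which held 36.4% of their variance, where the other 5 scored from -14.7 to 2.74. Counts in the 8 libraries ran from 9704500 to 12274847 and TMM factors from 0.980 to 1.08. Without that library 23 genes were called on average over the cultures and 2 in Th2. Without the first SGC0649 library of Th2, 603 were called on average and 2402 in Th2. The count on average was 1 without the first Th1 library without compound, 3 without the second, 2 without the first Th1 SGC0649 library and 1 without the second. It was 1 without the first Th2 library without compound and 7 without the second, where the counts in Th2 alone were 2 and 35. These fits leave a group with 1 library, which is assumed to vary like the others.

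**Figure D1:**
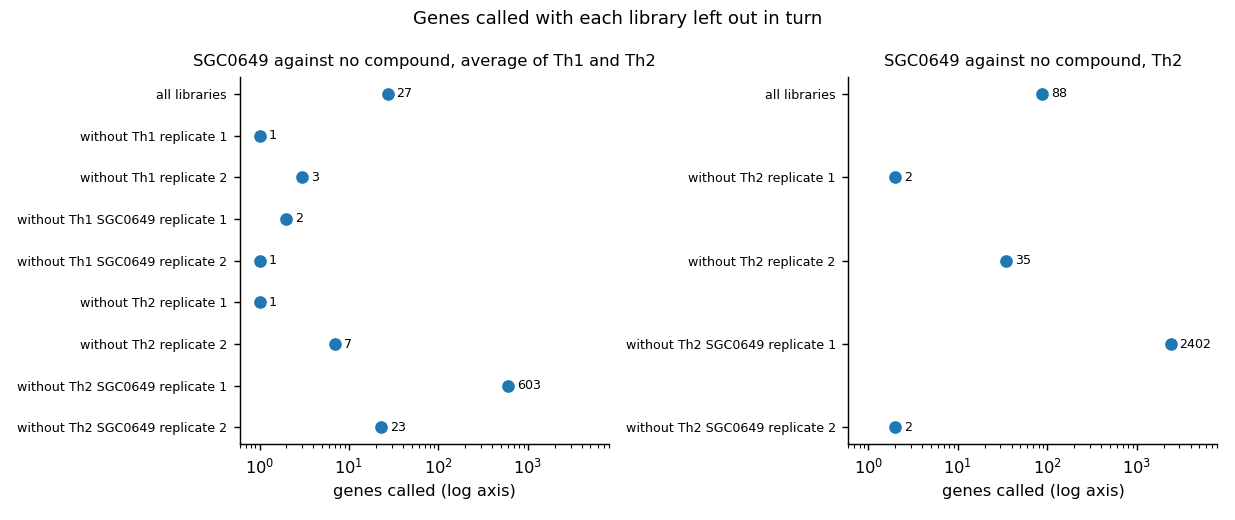
Number of genes called in SGC0649 against no compound with each library left out in turn, on a log axis, for the average of Th1 and Th2 (left) and for Th2 (right), by edgeR at an adjusted p under 0.05. All libraries together called 27 and 88 genes, and leaving out the first Th2 SGC0649 library called 603 and 2402.

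Gapdh had the lowest adjusted p of all genes. Its product, glyceraldehyde-3-phosphate dehydrogenase, is a step of glycolysis and a common reference for expression measurements. The gene lies on chromosome 6 at 125161715 to 125166467 of GRCm38, minus strand. In Th1 it was at 12.6 and 14.97 CPM (the count as a share of the library's TMM-scaled total) without compound and at 39.4 and 42.0 with SGC0649. In Th2 it was at 30.3 and 36.4 CPM without compound and at 90.5 and 98.1 with SGC0649. Both SGC0649 libraries were above both others in each culture, as the rule for naming genes by fold change required, and the gap was wide. The log2 fold change was 1.53 ± 0.10 (SE), or 2.89-fold, with an adjusted p of 5.35e-07 by edgeR. It was 1.56 ± 0.15 in Th1 and 1.502 ± 0.14 in Th2, and Th2 minus Th1 gave -0.06 ± 0.20 (adjusted p = 0.939). Gapdh was the one gene of the 27 that stayed called under all 16 alternatives of fit, table and left-out library, at log2 fold changes of 1.47 to 1.60.

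SGC0946 cultures held Gapdh at the level of SGC0649 cultures, 39.9 and 34.5 CPM in Th1 and 103 and 79.1 CPM in Th2. SGC0946 against SGC0649 gave a log2 difference of -0.09 ± 0.10 (edgeR adjusted p = 0.616), with an interval of -0.30 to 0.12. The remaining 8 libraries, naive cells and Dot1l-deleted cells without compound, held 15.9 to 28.7 CPM. Gapdh has many processed pseudogenes, and reads with more than 1 place were left uncounted. Its counts are therefore part of its reads and its level is uncertain. One of those copies, Gapdh-ps14, had 6 to 15 counts in the SGC0649 libraries and 8 to 14 in those without compound, against 148 to 1040 for Gapdh.

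None of the other glycolysis genes listed was called on average. In a list of 20 glycolysis and hypoxia genes without Gapdh, 0 were called on average, the median log2 difference was -0.05 and that of all genes tested was -0.01. Aldolase A (Aldoa) was at 2192 and 2219 CPM without compound and 2576 and 2435 with SGC0649 in Th1, and at 4830 and 4574 against 4126 and 2995 in Th2. For pyruvate kinase (Pkm) the log2 differences were 0.10 in Th1 and -0.22 in Th2, and for phosphoglycerate kinase (Pgk1) 0.28 and -0.30. In Th1, 19 of the 20 genes of the glycolysis and hypoxia list were above 0 (median 0.12, against 0 over all genes tested). In Th2 1 of the 20 was (median -0.23, against -0.02 over all genes tested). 1 gene of the list, Egln3, was called lower in Th2 and in Th2 minus Th1, and with the block 6 were called lower in Th2, as were 4.39% of all genes in that fit. Without the second SGC0649 library of Th2, the Th2 median was -0.17.

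**Figure D2:**
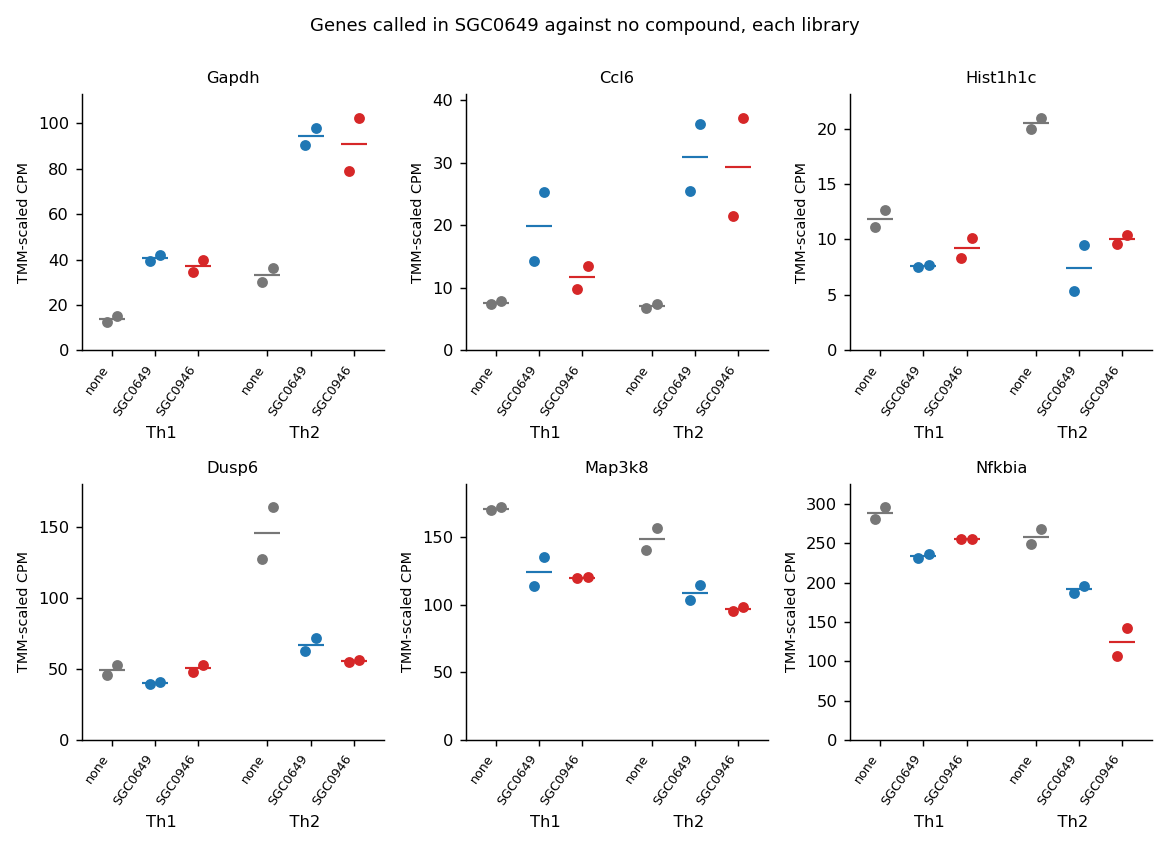
TMM-scaled CPM of 6 genes called in SGC0649 against no compound, with 1 point per library and a bar at the mean of the 2 libraries of a group, for WT Th1 and Th2 cultures with no compound (grey), SGC0649 (blue) and SGC0946 (red). Gapdh and Ccl6 are higher and Hist1h1c, Dusp6, Map3k8 and Nfkbia lower in both SGC0649 libraries of each culture, and Gapdh is as high with SGC0946. The rule that named these 6 genes required that SGC0649 and no compound not overlap in either culture.

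The proximal promoters of 3 called genes are shown because Gapdh is the gene called most firmly and Dusp6 and Nfkbia are 2 of those that fell. Each is the RefSeq window from 250 bases before to 50 after the start site, 300 bases in GRCm38.p6, written 5′ to 3′ on the strand of the gene. Capitals mark a motif found on either strand: ACGTG (the hypoxia response core) in Gapdh at chr6:125165724-125166023, minus strand; CCAAT in Dusp6 at chr10:99262981-99263280, plus strand; and kappa B (GGG and TTCC with any 3 bases between them) with TATAAA in Nfkbia at chr12:55492598-55492897, minus strand.
Gapdh: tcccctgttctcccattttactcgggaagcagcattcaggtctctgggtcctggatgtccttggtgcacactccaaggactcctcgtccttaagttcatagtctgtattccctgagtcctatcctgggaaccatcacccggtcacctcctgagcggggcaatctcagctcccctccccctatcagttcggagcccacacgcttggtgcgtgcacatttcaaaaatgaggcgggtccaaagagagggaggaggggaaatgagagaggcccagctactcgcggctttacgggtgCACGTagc
Dusp6: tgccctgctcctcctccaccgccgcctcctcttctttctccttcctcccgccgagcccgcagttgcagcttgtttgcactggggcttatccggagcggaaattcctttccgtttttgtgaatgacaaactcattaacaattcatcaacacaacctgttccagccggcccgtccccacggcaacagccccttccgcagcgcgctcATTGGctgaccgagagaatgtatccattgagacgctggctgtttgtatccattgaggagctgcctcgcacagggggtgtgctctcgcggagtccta
Nfkbia: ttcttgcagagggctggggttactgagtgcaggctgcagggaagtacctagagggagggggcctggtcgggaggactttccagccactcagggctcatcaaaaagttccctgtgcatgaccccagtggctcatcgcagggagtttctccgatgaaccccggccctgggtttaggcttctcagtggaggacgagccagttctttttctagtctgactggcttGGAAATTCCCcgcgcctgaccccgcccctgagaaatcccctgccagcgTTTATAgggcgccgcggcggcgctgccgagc

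Of the 27 called genes, 23 had such a window, and 32817 windows of the same length were searched. ACGTG was in 10 of the 23 (43.5%) and in 19.6% of all windows. CCAAT was in 9 (39.1%) and in 37.4% of all windows. The kappa B motif was in 2, Nfkbia and Zfp120, and in 5.56% of all windows. TATAAA was in 2 and in 13.6%, the cAMP response element TGACGTCA in 2 and in 1.79%, and the AP-1 site TGANTCA in 0 and in 7.81%. The ACGTG match of Gapdh lay 42 bases after the start site and the TATAAA match of Nfkbia 19 bases after it. These matches describe letters in the windows and no binding was measured.

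Among the genes that rose, Ccl6, a CC chemokine gene made mainly by myeloid cells, had the largest log2 fold change. It was at 7.39 and 7.86 CPM without compound and 14.3 and 25.3 with SGC0649 in Th1, and at 6.84 and 7.34 against 25.5 and 36.2 in Th2. Its log2 fold change was 1.75 ± 0.30 (edgeR adjusted p = 0.0430). All SGC0649 libraries lay above those without compound in both cultures, which the rule for naming genes by fold change required. With SGC0946 it was at 13.6 and 9.81 CPM in Th1 and 37.2 and 21.5 in Th2. The call was lost with limma voom, without a filter on low counts and with 7 of the 8 libraries left out in turn.

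The other genes that rose did so by less. Cmpk2, a nucleotide kinase induced by interferon, was at 6.79 and 5.46 CPM without compound and 7.60 and 7.96 with SGC0649 in Th1, and at 0.821 and 1.14 against 2.66 and 2.55 in Th2. Its log2 fold change was 0.88 ± 0.15 (edgeR adjusted p = 0.0328), but the call was lost in the 8 libraries alone, with and without the block. 1 of 21 interferon-stimulated genes had an unadjusted p under 0.05 on average, and 0 were called. Cysltr1, a receptor for cysteinyl leukotrienes, was at 17.7 and 17.3 CPM against 30.0 and 25.4 in Th1 and at 102 and 99.96 against 143 and 135 in Th2 (log2 fold change 0.56 ± 0.10). Clec2d, a ligand of inhibitory NK receptors, rose by 0.44 ± 0.07 on the log2 scale.

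The zinc finger genes Zfp758 (0.75 ± 0.14), Zfp942 (0.50 ± 0.09), Zfp120 (0.43 ± 0.08) and Zfp260 (0.39 ± 0.06) rose on the log2 scale. Zfp260 was at 73.3 and 68.2 CPM without compound and 91.2 and 92.7 with SGC0649 in Th1, and at 70.3 and 69.5 against 95.1 and 88.8 in Th2. Its replicates lay close together in every group. Ice2, a subunit of the little elongation complex (0.46 ± 0.09), Mis12 of the kinetochore (0.46 ± 0.09), the ubiquitin ligase G2e3 (0.44 ± 0.08) and the nuclear RNA-binding protein gene Hnrnpu (0.35 ± 0.07) also rose. The call of Ice2 was lost in the 8 libraries alone, with and without the block. Epm2aip1, whose product binds laforin, rose by 0.36 ± 0.07, and the remaining 2 genes that rose carry provisional names.

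Among the genes that fell, Hist1h1c, a linker histone gene, fell most. It was at 12.7 and 11.1 CPM without compound and 7.50 and 7.68 with SGC0649 in Th1, and at 20.99 and 19.95 against 9.46 and 5.38 in Th2. Its log2 fold change was -1.06 ± 0.14 (edgeR adjusted p = 0.00829), a level of 48.1% of that without compound. With SGC0946 it was at 8.35 and 10.1 CPM in Th1 and 10.4 and 9.63 in Th2, again below all libraries without compound. SGC0946 against SGC0649 gave 0.36 ± 0.15 (adjusted p = 0.175).

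Dusp6, a phosphatase that switches off ERK and whose promoter is printed above, was at 52.4 and 45.3 CPM without compound and 40.7 and 39.2 with SGC0649 in Th1. In Th2 it was at 164 and 127 CPM without compound and at 71.9 and 62.1 with SGC0649. Its log2 fold change was -0.70 ± 0.10 on average (edgeR adjusted p = 0.0130) and -1.12 ± 0.14 in Th2 (0.00212). The groups did not overlap in either culture, as the rule for naming genes by fold change required, and the gap was far wider in Th2. The test of Th2 minus Th1 gave -0.83 ± 0.20 with an adjusted p of 0.197, so the 2 cultures were not shown to differ for Dusp6.

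Map3k8, a kinase that feeds into ERK signalling, was at 170 and 172 CPM without compound and 135 and 114 with SGC0649 in Th1, and at 157 and 141 against 115 and 103 in Th2. It fell by nearly the same amount in both, -0.46 ± 0.10 and -0.45 ± 0.10, and the average of -0.45 ± 0.07 was called (edgeR adjusted p = 0.0142). Nfkbia, the NF-κB inhibitor IκBα and itself an NF-κB target, was at 296 and 281 CPM against 237 and 231 in Th1 and at 249 and 268 against 196 and 187 in Th2. Its log2 fold change was -0.37 ± 0.07 (edgeR adjusted p = 0.0430), with tight replicates. The calls of Nfkbia, Map3k8, Dusp6 and Hist1h1c were each lost in the 8 libraries alone without the block. They were also lost there with the additive factor, and with some libraries left out in turn. In the main fit Nfkbia was the 1 called member of a list of 10 immediate-early genes that respond to handling of cells. The median of that list was -0.35 on average, -0.09 in Th1 and -0.53 in Th2. The part of handling in the fall of Nfkbia was not tested. On average Nfkbia was also lower with SGC0946 than with SGC0649 (-0.25 ± 0.07, edgeR adjusted p = 0.0404). Mean levels were 124 against 191 CPM in Th2, but 256 against 234 in Th1.

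Tagap, a GTPase-activating protein of activated T cells, fell by 0.47 ± 0.09 on the log2 scale, from 284 and 297 CPM to 190 and 206 in Th1 and from 36.5 and 38.8 to 25.6 and 31.7 in Th2. Sgk1, a kinase of the PI3K pathway, was at 54.9 and 54.5 CPM against 52.4 and 48.6 in Th1 and at 50.1 and 43.3 against 27.1 and 16.5 in Th2 (average -0.61 ± 0.11). Its Th2 minus Th1 was -0.99 ± 0.23 and was not called (edgeR adjusted p = 0.189). The stress-induced kinase Plk2 (-0.61 ± 0.11), Lrig1, which restrains growth factor receptors (-0.49 ± 0.09), and Hivep3, a zinc finger protein that binds kappa B sites (-0.50 ± 0.10), were lower too. Lrig1 overlapped between groups in Th1, with 64.2 and 72.3 CPM without compound and 64.1 and 65.7 with SGC0649. Atp6v0c, a subunit of the vacuolar proton pump, fell by 0.61 ± 0.12. The calls of Atp6v0c and Tagap were lost with limma voom, with the table of every biotype and in the 8 libraries alone without the block.

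Il10, which encodes an anti-inflammatory cytokine, was the 1 called member of the Th2 list. It was at 98.7 and 79.7 CPM without compound and 75.6 and 63.6 with SGC0649 in Th1, and at 314 and 274 against 185 and 174 in Th2. Its log2 fold change was -0.54 ± 0.10 (edgeR adjusted p = 0.0474) and -0.72 ± 0.14 in Th2 (0.0375). The average call was lost under 11 of 16 alternatives.

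The lineage genes of Th1 and Th2 cells did not pass the test. Ifng was at 727 and 700.1 CPM without compound and 547 and 523 with SGC0649 in Th1. The 2 groups did not overlap there, as in 42.0% of all genes tested. Its average log2 difference was -0.27 with an interval of -0.71 to 0.17 (edgeR adjusted p = 0.596). Tbx21 was at 287 and 272 CPM against 282 and 271 in Th1 (average 0.11, interval -0.12 to 0.34). Gata3 was at 343 and 299 CPM against 302 and 266 in Th2 (average -0.07, interval -0.29 to 0.15). These intervals hold differences of some size as well as 0.

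Il4 was at 72.5 and 74.9 CPM without compound and 65.6 and 65.5 with SGC0649 in Th2, and at 2.33 to 7.03 CPM in Th1 (average -0.02, interval -0.54 to 0.49). Il13 was at 372 and 384 CPM against 305 and 534 in Th2, where the SGC0649 replicates lay on both sides of the others (average 0.32, interval -0.08 to 0.72). Over the lists, 0 of 23 Th1 genes were called (median 0.08) and 1 of 23 Th2 genes, Il10 (median -0.02).

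Dot1l was at 176 and 186 CPM without compound and 154 and 146 with SGC0649 in Th1, and at 148 and 164 against 145 and 174 in Th2. The average log2 difference was -0.12 ± 0.08 (interval -0.30 to 0.06, edgeR adjusted p = 0.552). Of 13 genes of DOT1L and its partners, 0 were called (median -0.10, against -0.01 over all genes tested). Of the 13, 11 were below 0, and the share of all genes below 0 was not counted. In Th2, where 0.428% of all genes tested were called lower, 1 of the 13 was, the elongation kinase Cdk9. Its difference there was -0.40 ± 0.09, from 127 and 115 CPM to 95.6 and 88.4. Of 15 histone methylation enzymes 0 were called (median -0.06), and 1 of them, the demethylase Kdm6b, was called lower in Th2 at -0.49 ± 0.11. In Th1 the log2 differences were -0.04 for Cdk9 and 0.14 for Kdm6b. Th2 minus Th1 was called for neither (edgeR adjusted p = 0.289 and 0.196). Both Th2 calls were lost in the 8 libraries alone without the block and with the table of every biotype. No level of the histone mark was measured here.

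Genes of the response to foreign chemicals did not pass the test either. Of 17 listed, 13 could be tested and 0 were called (median -0.01). Cyp1a1, a standard target of the aryl hydrocarbon receptor, was at 0 to 0.185 CPM in Th1 libraries and at 0.472 to 1.86 in Th2 libraries of both groups, and a difference was not detectable at this depth. Tiparp, another target of that receptor, was at 34.0 and 32.6 CPM against 43.8 and 51.4 in Th1 and at 104 and 99.0 against 99.9 and 107 in Th2 (average 0.27 ± 0.08, adjusted p = 0.158). Lists for oxidative stress (14 genes), heat shock (11) and p53 and apoptosis (14) held 0 called genes.

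**Figure D3:**
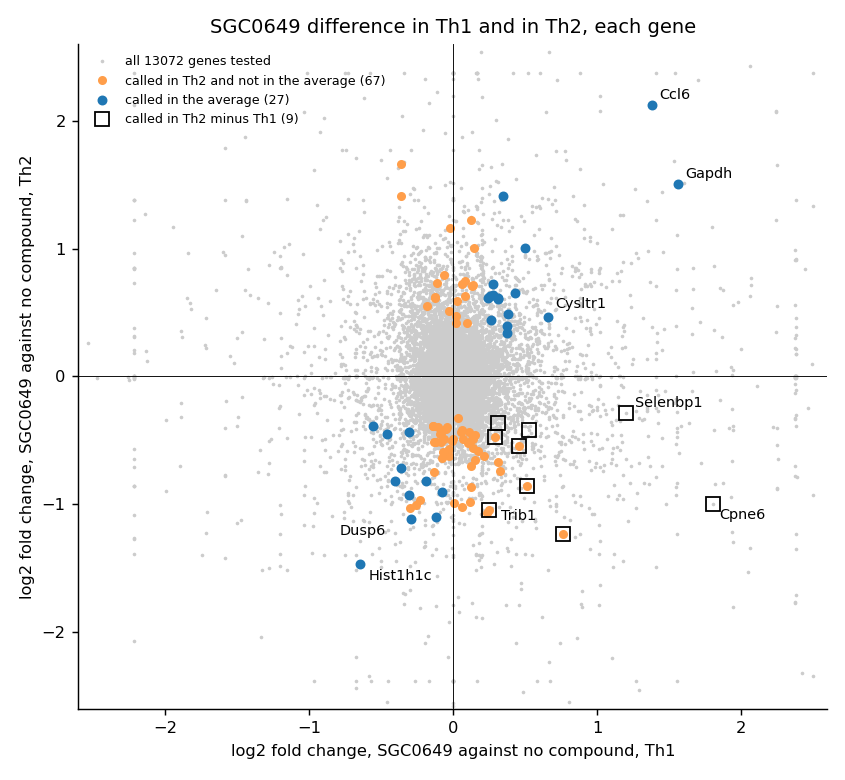
Log2 fold change of SGC0649 against no compound in Th1 (x axis) and in Th2 (y axis), 1 point per gene; 129 genes of low count lie outside the plotted range of 2.6 on either side. The 27 genes called in the average (blue) lie in the quadrants of equal sign, and the 9 called in Th2 minus Th1 (squares) lie where Th1 is above 0 and Th2 below. The tests that picked these genes favour equal signs in the first set and opposite signs in the second.

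The 88 genes called in Th2 held 67 that were not called on average. Of all 88, 53 had the same sign in Th1. The genes named from here to the end of the next paragraph were chosen after their values were seen. Dusp2, a phosphatase of ERK and related kinases, went from 160 and 128 CPM to 84.9 and 58.8 (-1.01 ± 0.19), while in Th1 it was at 255 and 225 against 226 and 176. Spry1, an inhibitor of signalling to ERK, went from 26.2 and 23.1 to 15.3 and 8.30 (-1.07 ± 0.20) in Th2. Egr2, a transcription factor of the early response, went from 85.2 and 55.1 to 42.4 and 29.0 (-0.98 ± 0.21). The cytokine gene Il21 went from 197 and 138 to 94.8 and 70.0 (-1.03 ± 0.18). In each of these 4 the libraries did not overlap in Th2, as in 45.8% of all genes tested. For none of the 4 was Th2 minus Th1 called by edgeR (adjusted p of 0.154 to 0.306).

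Rhob, a small GTPase (-0.96 ± 0.16), and the immediate-early gene Ier5 (-0.75 ± 0.13) were also lower in Th2. Of 23 amino acid and ER stress genes, 4 were called lower in Th2, against 0.428% of all genes tested, namely Trib3 (-0.51 ± 0.10), Sesn2 (-0.49 ± 0.10), Herpud1 (-0.49 ± 0.10) and Vldlr (-0.54 ± 0.10). All 4 calls were lost in the 8 libraries alone without the block, and those of Trib3, Sesn2 and Herpud1 also with the table of every biotype. That list's median in Th2 was -0.17. Its summed level overlapped there, at 7278 and 7005 CPM without compound and 6350 and 7424 with SGC0649. Among genes higher in Th2 were Myb, a transcription factor of proliferating lymphoid cells, from 30.2 and 36.4 CPM to 47.5 and 62.8 (0.73 ± 0.12), the condensin subunit Ncapg, from 104 and 128 to 188 and 196 (0.73 ± 0.12), and Dbf4, which activates the replication kinase Cdc7, from 42.7 and 45.0 to 59.0 and 69.1 (0.55 ± 0.10). Without the second SGC0649 library of Th2, 2 genes were called in Th2 in all.

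For 9 genes the difference between the cultures was itself called, and in all 9 SGC0649 lay above no compound in Th1 and below it in Th2. Selenbp1, a selenium-binding enzyme, was at 7.22 and 6.62 CPM without compound and 17.02 and 14.9 with SGC0649 in Th1. In Th2 it was at 184 and 168 CPM without compound and at 159 and 130 with SGC0649. It rose in Th1 (1.203 ± 0.15, edgeR adjusted p = 0.00403), and Th2 minus Th1 gave -1.49 ± 0.19 (0.00650). Trib1, a pseudokinase that directs protein degradation, was at 17.8 and 16.8 CPM against 21.1 and 20.2 in Th1 and at 93.7 and 74.6 against 44.1 and 37.5 in Th2. Its fall in Th2 was -1.05 ± 0.12 (edgeR adjusted p = 0.000814), and Th2 minus Th1 gave -1.30 ± 0.18 (0.0124).

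Kctd11, an adaptor of a ubiquitin ligase, was at 35.9 and 33.0 CPM against 46.3 and 52.0 in Th1 and at 40.4 and 30.5 against 19.9 and 19.2 in Th2. Egln3, an oxygen-sensing prolyl hydroxylase, was at 469 and 486 CPM against 586 and 582 in Th1 and at 997 and 983 against 705 and 718 in Th2. The gene of the lipoprotein receptor Vldlr was at 46.1 and 46.3 CPM against 61.2 and 66.1 in Th1 and at 199 and 181 against 142 and 119 in Th2. In these 3 the groups did not overlap in either culture and lay in opposite order. Each culture taken singly, 42.0% of all genes tested did not overlap in Th1 and 45.8% in Th2. The share with opposite order in both was not counted, and the test of Th2 minus Th1 that picked these genes favours it. Dntt, the DNA polymerase of receptor gene rearrangement, was at 28.8 and 25.4 CPM against 52.3 and 39.8 in Th1 and at 98.6 and 68.0 against 45.7 and 25.2 in Th2. Without each library in turn, Th2 minus Th1 called 0 to 5 genes, except 1147 without the first SGC0649 library of Th2.

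**Figure D4:**
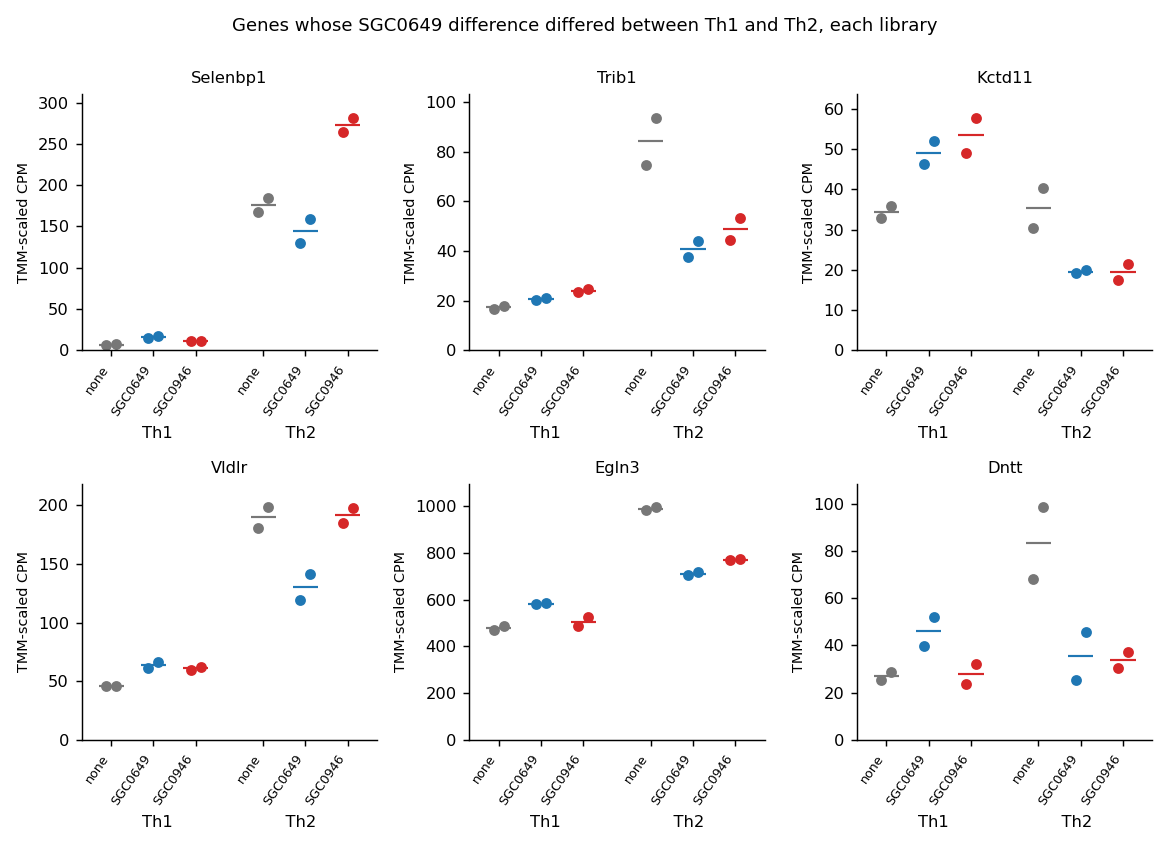
TMM-scaled CPM of 6 of the 9 genes called in Th2 minus Th1, with 1 point per library and a bar at the mean of the 2 libraries of a group, for WT Th1 and Th2 cultures with no compound (grey), SGC0649 (blue) and SGC0946 (red). In all 6 the SGC0649 libraries are above those without compound in Th1 and below them in Th2, as for Trib1 at 44.1 and 37.5 against 93.7 and 74.6.

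Cell cycle genes lay higher in Th2 and lower in Th1. Of 22 in the list, 20 were above 0 in Th2 (median 0.67) and 2 of 22 in Th1 (median -0.15), and 0 were called in either. With the block 17 cell cycle genes were called higher in Th2, as were 444 genes in all (3.68%). Their summed level in Th2 was 3187 and 3738 CPM without compound and 3727 and 5183 with SGC0649, so the second SGC0649 library carried most of it. Mki67, a marker of cells in cycle, was at 342 and 491 CPM against 558 and 827 in Th2 (0.73 ± 0.35, edgeR adjusted p = 0.250). In the list of cell cycle genes the Th2 median was 0.27 without that library and 0.97 without the first one.

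Markers of mast cells and basophils lay higher with SGC0649 in both cultures. All 12 of 13 that could be tested were above 0 on average (median 0.99), and 0 were called by edgeR, while 6 were called higher with the block, as were 56 genes in all (0.464%). Their summed level was 193 and 146 CPM without compound and 236 and 217 with SGC0649 in Th1, and 101 and 105 against 195 and 258 in Th2. Cpa3, a mast cell carboxypeptidase, was at 7.48 and 10.4 CPM against 16.1 and 40.2 in Th2 (1.66 ± 0.66), and Mcpt8, a basophil protease, at 18.98 and 24.7 against 44.0 and 62.6 (1.29 ± 0.50). Kit was at 3.74 and 5.48 CPM against 5.22 and 6.13. Tpsab1 was at 0 in 6 of the 8 libraries. The libraries came from cells sorted as CD4+, and in bulk RNA a difference in the number of cells of a type and in RNA per cell cannot be told apart. All 5 NK cell markers were above 0 on average (median 0.58, 0 called), with sums of 16.6 and 20.3 CPM without compound and 30.0 and 26.1 with SGC0649 in Th2, and of 31.7 and 39.1 against 32.4 and 37.6 in Th1. Of 9 B cell markers 8 were below 0 (median -0.90, 0 called), with sums of 47.7 and 26.8 CPM against 31.8 and 15.7 in Th2 and of 30.8 and 19.6 against 27.3 and 16.7 in Th1. Of 11 myeloid and dendritic markers 9 were above 0 (median 0.56, 0 called), with sums of 26.9 to 78.1 CPM over the 8 libraries, and erythroid markers summed to 0.248 to 0.833. The part of these markers in the rise of Ccl6 was not tested.

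**Figure D5:**
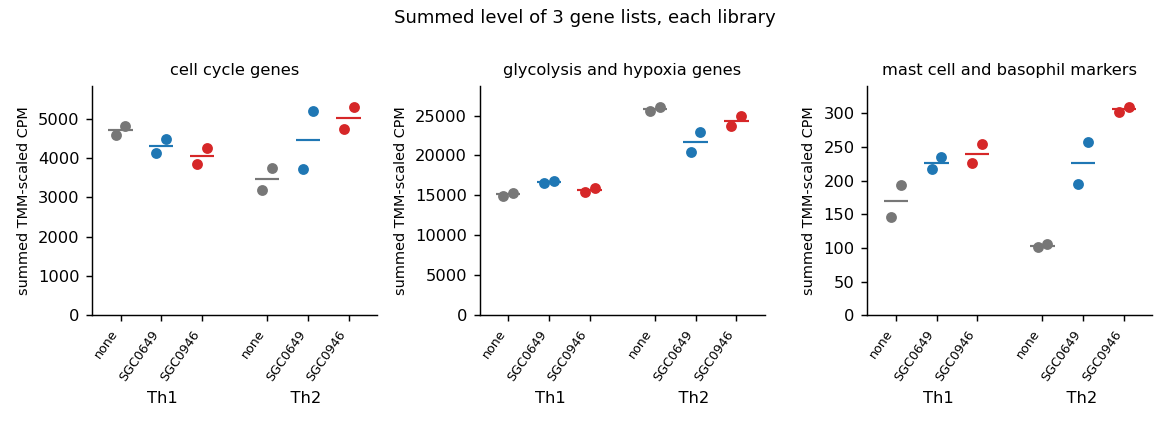
Summed TMM-scaled CPM of the cell cycle list, the glycolysis and hypoxia list and the mast cell and basophil list, with 1 point per library and a bar at the mean of the 2 libraries of a group, for WT Th1 and Th2 cultures with no compound (grey), SGC0649 (blue) and SGC0946 (red). In Th2 the cell cycle sum is 3727 in 1 SGC0649 library and 5183 in the other, and the mast cell and basophil sum is 195 and 258 against 101 and 105 without compound.

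Genes that mark T cells were measured at high levels in all 8 libraries. Cd4 was at 1049 and 1007 CPM against 979 and 912 in Th1 and at 584 and 543 against 479.9 and 391 in Th2 (average -0.25 ± 0.08, edgeR adjusted p = 0.207). Cd3e was at 328 and 327 CPM against 327 and 321 in Th1 and at 177 and 165 against 189 and 164 in Th2. The pan-T cell list had 0 of 11 genes called and a median of -0.16.

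Cultures with SGC0946 allow each called gene to be read in both compounds at the same dose and time. SGC0946 against SGC0649, averaged over Th1 and Th2, called 944 genes (7.22%), 649 higher (4.96%) and 295 lower (2.26%). Both comparisons use the same SGC0649 libraries, so their values are given side by side and not related to each other. Of the 27 genes called for SGC0649, 7 were called in this test. Clec2d and Cmpk2 were higher still with SGC0946, at 144 and 122 CPM for Clec2d in Th1 against 110.1 and 115 with SGC0649. Lrig1, Hivep3, Tagap, Plk2 and Nfkbia were lower still on average. In Th1, though, SGC0946 means lay above SGC0649 means for Plk2 (48.7 against 45.6 CPM) and Nfkbia (256 against 234). In Th2 they lay below, at 25.0 against 51.6 CPM for Plk2 and 124 against 191 for Nfkbia. Lrig1 was at 39.5 and 37.9 CPM in Th1 and 14.3 and 12.9 in Th2 with SGC0946, which gave -0.90 ± 0.10 against SGC0649 (edgeR adjusted p = 4.34e-05).

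The other 20 did not pass that test, which does not show that the compounds act alike on them. For Dusp6 the difference was 0.03 with an interval of -0.20 to 0.26, and for Ccl6 it was -0.42 with an interval of -1.03 to 0.19. With SGC0946 Dusp6 was at 55.9 and 54.8 CPM in Th2, below both SGC0649 libraries there, and at 52.6 and 47.9 in Th1, above both SGC0649 libraries.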

How the data were processed

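The authors deposited read counts per gene, produced by featureCounts 1.5.3 against Ensembl 84 (GRCm38, strand setting 2) per the file headers. The deposited tables also list gene lengths in bases, which entered no test. The edgeR and limma packages are named in the submitters' processing notes, and an aligner is not given in the sources used here. Alignments assigned to genes made up 51.3% to 54.3% of a library. Another 32.5% to 34.9% mapped to several places and went uncounted, which leaves genes with near copies (Gapdh, Eno1, the Mcpt family) uncertain.

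Of 22048 protein-coding genes, filterByExpr (minimum count 10, minimum total 15) left 13072. The 20 libraries were fitted together, 1 mean per group, with TMM scaling and the robust quasi-likelihood F test of edgeR 4.0.16 under R 4.3.3. The fit had 10 residual degrees of freedom and a common biological coefficient of variation of 0.0963. Benjamini-Hochberg adjustment ran across every gene tested. Comparisons were SGC0649 against no compound averaged over Th1 and Th2, in each culture and Th2 minus Th1, and SGC0946 against SGC0649. SE is the size of the log2 fold change over the root of F, and intervals are at 95% with the residual degrees of freedom. The test was tried on simulated counts. Alternatives were DESeq2 1.42.0, voom of limma 3.58.1, RLE scaling, no filter, the table of every biotype, the 8 libraries alone, the replicate block in those 8 and each library left out.

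The text names 6 genes whatever their result (Dot1l, Tbx21, Ifng, Gata3, Il4, Il13). It then names the 10 highest and 10 lowest average fold changes among called genes, at a log2 CPM of 1 or more, with no overlap in both cultures and no provisional name. It adds the 5 called genes with the largest difference between cultures and at most 3 called genes per list. Others were chosen after their values were seen. The 31 gene lists and the libraries compared were chosen with earlier results of these data known.

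Same-numbered libraries deviated together, with correlations of deviations of 0.232 to 0.481 over 6 pairs of groups and 6314 genes. The number was therefore taken to pair them in the fit with the block, from these correlations alone, since the labels give it no meaning. The SEs and p-values quoted come from unpaired fits of all 20 libraries. The second libraries with SGC0946 carry another number in the table than in their titles and were used by group only. Promoters are RefSeq windows of GRCm38.p6.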

Additional observations from a re-analysis of the deposited data

Results flagged for a closer look

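The SGC0649 difference differed between Th1 and Th2 by a test of that difference (edgeR, Th2 minus Th1) for 9 genes, with log2 values of -1.49 for Selenbp1 (adjusted p = 0.00650), -1.30 for Trib1 (0.0124), -1.37 for Kctd11 (0.0145), -1.003 for Vldlr (0.0165), -0.95 for Plcxd1 (0.0226), -0.77 for Egln3 (0.0238), -2.80 for Cpne6 (0.0423), -0.68 for St6gal1 (0.0423) and -2.00 for Dntt (0.0431). Plcxd1 is a gene with a phospholipase-like domain and St6gal1 encodes a sialyltransferase. Cpne6, a calcium-binding copine, had few counts in Th1, at 0.679 and 0.496 CPM without compound and 1.82 and 2.31 with SGC0649, and was at 24.3 and 27.7 against 14.5 and 11.5 in Th2. All 9 calls were lost when edgeR was fitted on the 8 libraries without the other groups: 0 genes were called and 1455 had an unadjusted p under 0.05, against 1659 in the fit of all 20 libraries, while DESeq2 on all 20 called 50.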

How the results depend on the processing

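The average of Th1 and Th2 called 27 genes and, in the alternatives that moved this count, 138 with DESeq2, 44 without a filter, 6 with the 8 libraries alone and, in these same 8, 5 with Th1 and Th2 as an additive factor and 102 with the replicate block. Leaving out 1 library gave 1 to 603. Of the 27 genes, 27 stayed called with DESeq2 and with RLE scaling, 25 with the block, 22 with voom, 3 with the 8 libraries alone and 2 with the additive factor. Th1 called 2 genes, and 19 with DESeq2, 1 alone, 1 with voom, 4 without a filter, 10 with the block and 1 to 2 without 1 library. Th2 called 88, and 543 with DESeq2, 1 alone, 137 with voom, 207 without a filter, 974 with the block and 2 to 2402 without 1 library. With the table of every biotype Th2 called 91, of which 55 were higher and 36 lower. Th2 minus Th1 called 9, and 50 with DESeq2, 0 alone, 15 without a filter, 217 with the block and 0 to 1147 without 1 library. SGC0946 against SGC0649 called 944, and 376 to 1975 without 1 library; no paired fit was made there because the second SGC0946 libraries have no sure number. Of the gene lists 2 members were called, and 15 with DESeq2, 22 with the block, 1 with the table of every biotype and 0 to 22 without 1 library. The cause of these moves was not tested, except that fits of fewer libraries have fewer degrees of freedom.

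Of 947 comparisons of a named gene with an alternative, 568 kept their direction and side of the threshold, 376 lost the call and 3 changed sign, all of Il4: 0.0062 with the table of every biotype, 0.014 without the first Th1 library without compound and 0.26 without the first Th1 SGC0649 library. Without each library in turn Il4 ranged from -0.54 to 0.26. DESeq2 gave no adjusted p for Gapdh in Th1 and Cpne6 in Th2 minus Th1. At 9704500 to 12274847 counts a library, the smallest differences called were 0.35 on average and 0.32 in Th2 (log2).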

Other observations

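In the table of every biotype, 3 genes outside the protein-coding class were called on average by edgeR, apart from entries with clone names. Gm16586, annotated as antisense, was at 36.5 and 37.2 CPM without compound and 47.9 and 47.3 with SGC0649 in Th1, and at 36.0 and 33.2 against 53.4 and 57.6 in Th2 (log2 fold change 0.53, adjusted p = 0.00954). The long noncoding RNA gene 1700020I14Rik was at 236 and 235 CPM against 276 and 274 in Th1 and at 179 and 170.4 against 229 and 223 in Th2 (0.30, 0.0276). Mir142, annotated as the gene of a microRNA of blood cells, was at 21.6 and 19.1 CPM against 13.8 and 11.99 in Th1. In Th2 it was at 14.4 and 9.65 CPM against 7.40 and 5.79 (average -0.76, edgeR adjusted p = 0.0363). For Mir142 total RNA counts do not measure the mature form. These genes were chosen after their values were seen. Another 3 called entries carry clone names. Of these, RP24-344N22.5 was at 62.0 and 59.6 CPM against 38.4 and 34.4 in Th1. In Th2 it was at 39.6 and 35.6 CPM against 34.5 and 30.5 (average -0.48, edgeR adjusted p = 0.0235).

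Granzyme B (Gzmb), a cytotoxic protease, was at 1314 and 1699 CPM without compound and 1887 and 2427 with SGC0649 in Th2, and at 2973 and 3222 with SGC0946, while in Th1 the values were 4050.2 and 4316 against 4098 and 4488. The average did not pass the test (0.28 ± 0.10, edgeR adjusted p = 0.269), and 0 of 18 cytotoxic genes were called (median 0.22). Il5, a Th2 cytokine, lay above no compound in both SGC0649 libraries of each culture. Of all genes tested, 10.5% lay on 1 side in both cultures. Il5 was at 88.6 and 90.2 CPM against 102 and 126 in Th2 and at 3.23 and 3.89 against 4.76 and 7.86 in Th1. Its average was not called (0.59 ± 0.18, edgeR adjusted p = 0.188).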
